A study of Homo sapiens with 2 samples.

Results

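HLA class I molecules show peptides from inside the cell to CD8 T cells and natural killer cells. The set described here holds 9 genes: the heavy-chain genes HLA-B, HLA-C, HLA-E and HLA-F, the light-chain gene B2M, the peptide-loading genes TAP1, TAP2 and TAPBP, and NLRC5, the class I transactivator. They were found by symbol in both expression tables, 9 of 55773 symbols, and all 9 were among the 11802 genes called measured, whose level reached 1 RPKM in either library. RPKM is a read count scaled to exon length and to the size of the library.

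Both libraries came from BFTC 905, an established human cell line of bladder cancer, grown with serum and selected with 400 µg/ml G418. The ANGPTL4 library was made from cells stably transfected with a plasmid that overexpresses ANGPTL4, a secreted inhibitor of lipoprotein lipase. The vector control library was made from cells stably transfected with pcDNA3.1. The labels speak of stable clones without saying how many were used, and the untransfected line was not analysed here. There was 1 library per group, so no value below has a replicate check, and each difference is one between these 2 libraries and not between the conditions. Depth, worked out from the RPKM values, was 3233596 reads for the ANGPTL4 library and 6572767 reads for the control library. ANGPTL4 itself had 91.2 RPKM in the ANGPTL4 library and 3.92 RPKM in the control library.

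A class I molecule is a heavy chain held together with beta-2-microglobulin and a short peptide. The proteasome and its interferon-induced form, the immunoproteasome, cut proteins into peptides, and the TAP1-TAP2 transporter moves them into the endoplasmic reticulum. There tapasin, the product of TAPBP, bridges the transporter to the waiting heavy chain, and calreticulin and PDIA3 help in loading. NLRC5 acts at class I promoters together with the RFX factors, CREB/ATF family members and NF-Y, while interferons act through STAT and IRF proteins. HLA-B and HLA-C present peptides to T cells, HLA-E presents leader peptides of other class I chains to natural killer cell receptors, and HLA-F is a less abundant non-classical heavy chain. Loss of class I expression is a known way for carcinomas to escape T cells.

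The promoter windows below, each from 250 bases before to 50 bases after an annotated gene start, show the sequence around gene starts, where regulators of these genes are known to act. They come from RefSeq (GRCh38.p14) and are given for the classical heavy chains, the light chain and the 3 loading genes, whose values are compared below. Capitals mark matches on either strand to letters of 5 motifs: the interferon-stimulated response element (ISRE, GAAA and GAAA with any 2 bases between), the gamma-activated site (GAS, TTC and GAA with any 3 bases between), an NF-kB site (GGG and TTCCC with any 2 bases between), the CRE core (TGACG) and the CCAAT box (CCAAT), whose matches may overlap. HLA-B lies on the minus strand at chr6:31357130-31357429 and HLA-C on the minus strand at chr6:31272043-31272342. B2M lies on the plus strand at chr15:44711267-44711566. TAP1 (chr6:32853655-32853954, the upstream one of its 2 windows), TAP2 (chr6:32838690-32838989) and TAPBP (chr6:33314029-33314328) all lie on the minus strand.
HLA-B: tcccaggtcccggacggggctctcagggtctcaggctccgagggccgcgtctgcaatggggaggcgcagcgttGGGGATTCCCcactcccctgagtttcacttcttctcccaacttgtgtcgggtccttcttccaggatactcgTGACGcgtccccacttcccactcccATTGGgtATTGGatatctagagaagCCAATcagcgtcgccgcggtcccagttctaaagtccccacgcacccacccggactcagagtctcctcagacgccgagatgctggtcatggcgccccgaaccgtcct
HLA-C: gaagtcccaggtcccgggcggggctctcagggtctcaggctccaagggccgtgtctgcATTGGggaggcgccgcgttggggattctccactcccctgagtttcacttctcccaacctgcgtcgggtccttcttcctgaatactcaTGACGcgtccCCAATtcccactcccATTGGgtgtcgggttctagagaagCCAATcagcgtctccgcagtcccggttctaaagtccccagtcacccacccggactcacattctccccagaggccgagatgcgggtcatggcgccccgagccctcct
B2M: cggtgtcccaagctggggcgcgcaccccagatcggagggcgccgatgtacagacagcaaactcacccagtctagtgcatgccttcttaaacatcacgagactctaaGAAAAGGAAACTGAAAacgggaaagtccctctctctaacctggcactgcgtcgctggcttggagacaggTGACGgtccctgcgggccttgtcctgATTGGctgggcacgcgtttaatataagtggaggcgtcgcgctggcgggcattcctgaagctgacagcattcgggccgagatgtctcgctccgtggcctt
TAP1: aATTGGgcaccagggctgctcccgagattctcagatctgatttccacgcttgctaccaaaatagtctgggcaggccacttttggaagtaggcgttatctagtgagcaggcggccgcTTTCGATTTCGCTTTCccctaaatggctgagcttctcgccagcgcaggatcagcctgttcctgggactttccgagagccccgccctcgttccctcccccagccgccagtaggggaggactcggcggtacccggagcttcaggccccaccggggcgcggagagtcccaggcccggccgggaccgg
TAP2: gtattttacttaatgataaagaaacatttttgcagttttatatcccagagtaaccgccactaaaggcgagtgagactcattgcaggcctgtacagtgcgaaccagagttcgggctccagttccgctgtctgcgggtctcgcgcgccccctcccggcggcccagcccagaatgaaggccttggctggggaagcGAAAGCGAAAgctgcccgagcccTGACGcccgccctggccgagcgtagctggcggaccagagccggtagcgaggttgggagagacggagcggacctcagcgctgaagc
TAPBP: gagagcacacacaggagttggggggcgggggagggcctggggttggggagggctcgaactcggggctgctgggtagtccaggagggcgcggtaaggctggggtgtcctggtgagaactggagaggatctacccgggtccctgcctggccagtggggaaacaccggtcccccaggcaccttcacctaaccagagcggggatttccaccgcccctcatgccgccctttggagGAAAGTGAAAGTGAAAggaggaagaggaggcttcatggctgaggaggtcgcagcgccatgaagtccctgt

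Of the 9 genes, 7 had a window in the table, and HLA-E and NLRC5 had none. A gene was counted if any of its windows matched, and TAP1 had more than 1. The percentages beside these counts are shares of single windows. ISRE letters were found in 5 of the 7 genes (B2M, TAP1, TAP2, TAPBP and HLA-F), where 3.57% of all 35116 windows of this length held them. The matches in B2M, TAP1 and TAPBP were pairs that overlap. NF-kB letters were found in 1 of the 7, HLA-B, beside 2.17% of all windows. CRE cores were found in 4 (HLA-B, HLA-C, B2M and TAP2, 24.6% of all windows) and CCAAT boxes in 5 (HLA-B, HLA-C, HLA-F, B2M and TAP1, 34.6% of all windows). GAS letters were found in 1, in the other TAP1 window (7.66% of all windows). The HLA-B and HLA-C windows were identical at 269 of 296 aligned bases, 90.9%. A match is a description of the letters and not evidence of binding. Only exact letters were marked, so a window without a match can still hold a site that departs from them.

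Class I and peptide-loading genes differed little between the libraries. No member reached a 2-fold difference on the log2(RPKM + 1) scale, a size that 3.11% of all measured genes reached. HLA-E, B2M, TAP1 and TAP2 were lower in the ANGPTL4 library and TAPBP higher, each with a 95% counting interval of the ratio that excluded 1, and for HLA-B, HLA-C, HLA-F and NLRC5 the interval included 1. These 5 of 9 stand beside 35.7% of measured genes with a settled exon length. The 4 lower ones stand beside 27.3% and the 1 higher one beside 8.45% of those genes. Of the 7 members with at least 200 control reads, 5 had such an interval, beside 48.4% of genes with that many reads. Counted without regard to intervals, 6 members were lower and 3 higher, while 64.4% of all measured genes were lower. The median log2 ratio of the 9 was -0.20, beside -0.11 for all measured genes, and all 9 lay between the 5th and 95th percentiles of measured genes, -0.74 and 0.45.

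**Figure D1:**
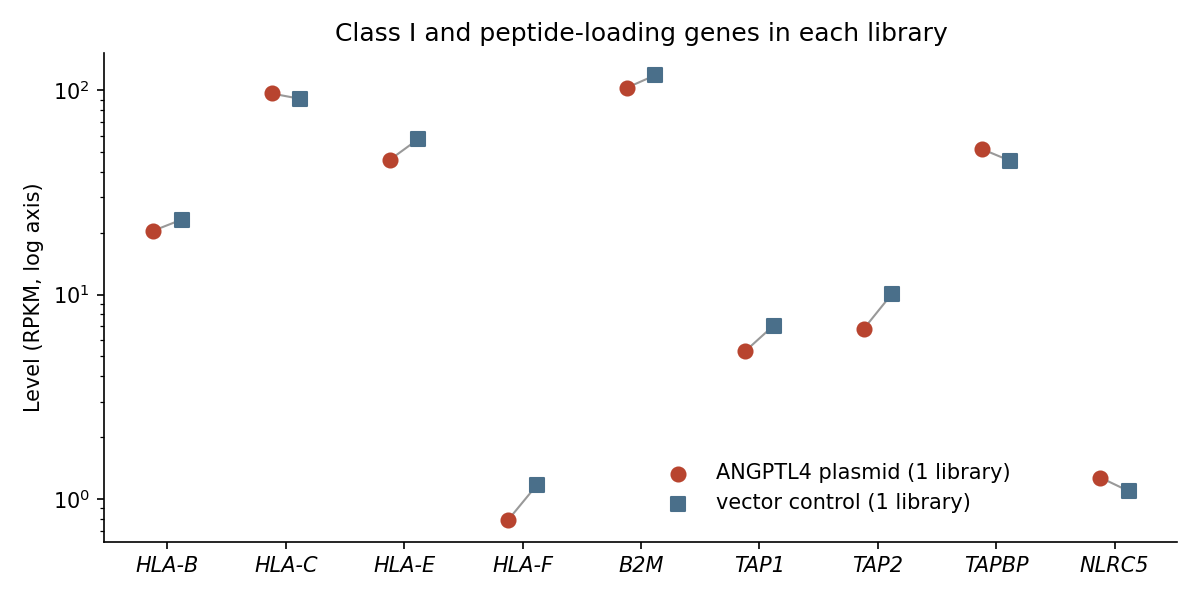
Level of each gene in RPKM (log axis) in the ANGPTL4 library (circles) and the vector control library (squares), 1 library each. Levels run over 2 orders of magnitude, with B2M and HLA-C at the top and HLA-F and NLRC5 near 1 RPKM, and the lines joining the libraries are short beside that range.

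B2M and HLA-C were the most abundant members and HLA-F and NLRC5 the least. In the ANGPTL4 library the order was B2M, HLA-C, TAPBP, HLA-E, HLA-B, TAP2, TAP1, NLRC5 and HLA-F. In the control library HLA-E stood above TAPBP and HLA-F above NLRC5, and the rest of the order was the same. By exact 95% Poisson intervals, the neighbours that did not separate in the ANGPTL4 library were B2M and HLA-C, TAPBP and HLA-E, TAP2 and TAP1, and NLRC5 and HLA-F. In the control library HLA-F and NLRC5 were the only such neighbours. B2M ranked 233 among the 11802 measured genes in the ANGPTL4 library and 216 in the control library, and HLA-C ranked 255 in the ANGPTL4 library and 320 in the control library.

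The order between genes depends on the exon length used. The RPKM values corresponded to an exon length of 6302 bases for B2M, while its annotated principal transcript in GENCODE 29 has 1705 bases, 3.70 times fewer. For HLA-C these lengths were 2507 and 1536 bases, and for HLA-E 2975 and 2601 bases. With reads scaled to the length of the principal transcript instead, in RPKM, B2M had 380.2 in the ANGPTL4 library and 438.0 in the control library, against 157.4 and 148.3 for HLA-C in the same libraries. These B2M values rest on the length of 6302 bases. A length of 3151 bases also gave whole reads, 1048 in the ANGPTL4 library and 2454 in the control library. With those reads the B2M values on this scale would be lower in proportion. On the same scale TAPBP had 138.1 in the ANGPTL4 library and 120.9 in the control library, above HLA-E with 52.3 and 66.0 in the same libraries. The ratio of a gene between the libraries does not depend on this length.

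Among the heavy chains, HLA-E was lower in the ANGPTL4 library and HLA-C was not. HLA-C (chromosome 6, 31236526 to 31239907, in hg19 like all gene positions here, with reads counted over exons) had 96.5 RPKM from 782 reads in the ANGPTL4 library and 90.8 RPKM from 1497 reads in the control library. Its ratio was 1.06 (95% interval 0.973 to 1.16), with a log2 ratio of 0.09. HLA-C was thus slightly higher in the ANGPTL4 library, by less than counting error as the values were deposited. When the libraries were scaled to the same median gene, its ratio was 1.15 (1.05 to 1.25), and its interval lay above 1 under all 4 scalings tried.

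HLA-E (chromosome 6, 30457244 to 30461982), the ligand of the natural killer receptor NKG2A, had 45.7 RPKM from 440 reads in the ANGPTL4 library and 57.7 RPKM from 1129 reads in the control library. Its ratio was 0.792 (0.708 to 0.885) and its log2 ratio -0.33. HLA-E was the heavy chain that was lower beyond counting error, and it stayed so under each scaling. Relative to HLA-C within each library, HLA-E stood at 0.474 in the ANGPTL4 library and 0.636 in the control library, a quotient of 0.746 (0.647 to 0.860) that no scaling of a whole library can alter.

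HLA-B (chromosome 6, 31321649 to 31324965), a classical heavy chain like HLA-C, had 20.5 RPKM from 200 reads in the ANGPTL4 library and 23.3 RPKM from 461 reads in the control library. Its ratio was 0.882 (0.743 to 1.04), so a difference was not detectable at this depth. HLA-F (chromosome 6, 29690552 to 29706305) had 0.792 RPKM from 12 reads in the ANGPTL4 library and 1.17 RPKM from 36 reads in the control library, with a ratio of 0.678 (0.321 to 1.33). The interval of HLA-F is wide because so few reads fell on it, and HLA-F-AS1 overlaps it with 0.148 RPKM in the ANGPTL4 library and 0.182 RPKM in the control library. HLA-B was well below HLA-C in both libraries, at 0.213 of its level in the ANGPTL4 library and 0.256 in the control library, with a quotient of 0.831 (0.685 to 1.005).

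The 4 heavy chains were also summed, and the mix of their reads differed between the libraries. Their summed level was 163.5 RPKM in the ANGPTL4 library and 173.0 RPKM in the control library, a log2 ratio of -0.08. From their summed reads, 1434 in the ANGPTL4 library and 3123 in the control library, the ratio was 0.933 (0.876 to 0.994). The sign of the log2 ratio turned when the libraries were scaled to the same median gene, where it was 0.03, and with upper-quartile scaling, where it was 0.07. Of the reads on these 4 genes, HLA-C held 54.5% in the ANGPTL4 library (Wilson 95% interval 51.9 to 57.1) and 47.9% in the control library (46.2 to 49.7). HLA-E held 30.7% in the ANGPTL4 library (28.4 to 33.1) and 36.2% in the control library (34.5 to 37.9). The HLA-C share was thus larger and the HLA-E share smaller in the ANGPTL4 library, with intervals that did not overlap. HLA-B held 13.9% in the ANGPTL4 library (12.3 to 15.8) and 14.8% in the control library (13.6 to 16.0), with intervals that overlapped.

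**Figure D2:**
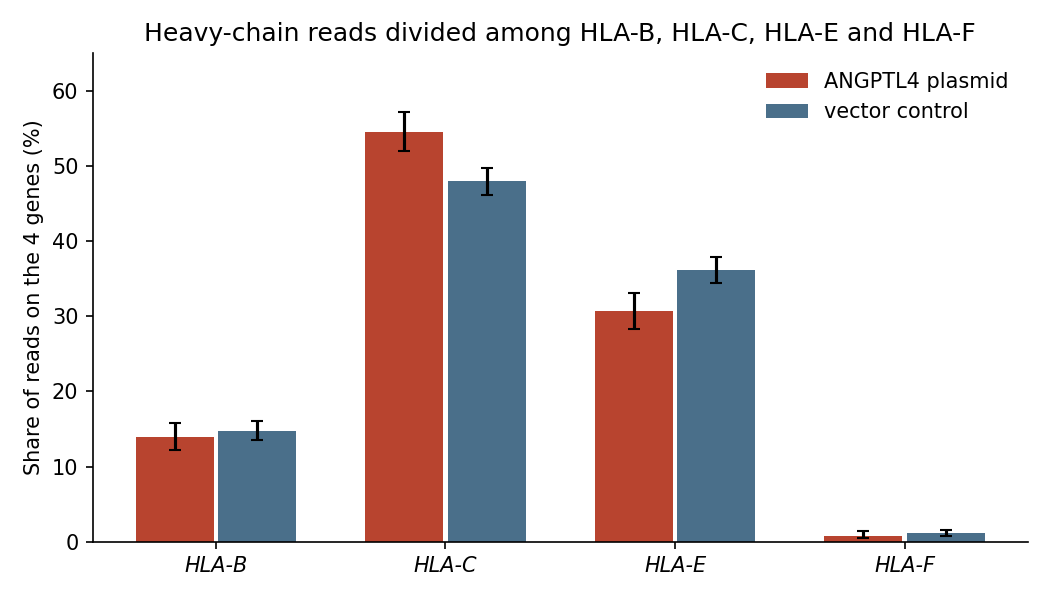
Share of the reads on HLA-B, HLA-C, HLA-E and HLA-F that each gene held in the ANGPTL4 library and the vector control library, in percent. Error bars are Wilson 95% intervals and cover counting error only. HLA-C held 54.5% in the ANGPTL4 library and 47.9% in the control library, and HLA-E 30.7% in the ANGPTL4 library and 36.2% in the control library.

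Heavy-chain genes resemble each other, so reads can be divided among them in more than 1 way. Over aligned stretches of their principal transcripts, HLA-B and HLA-C were 92.6% identical, HLA-C and HLA-E 86.5%, and HLA-E and HLA-F 83.3%. Of all 50-base stretches of the HLA-C transcript, 6.79% occurred also in a transcript of another HLA gene, and the share was 2.54% for HLA-B, 4.66% for HLA-E and 1.51% for HLA-F. For stretches of 100 bases the shares were 0.278% for HLA-C, 0.5995% for HLA-E and 0 for HLA-B and HLA-F. The read length is not given in the sources used here. Of the 40 symbols that begin with HLA-, 20 were listed at 0 in both libraries. Reads were also listed for the class I pseudogenes HLA-H, with 2.53 RPKM in the ANGPTL4 library and 3.81 RPKM in the control library, and HLA-V, with 2.08 RPKM in the ANGPTL4 library and 1.48 RPKM in the control library. Both are far below HLA-C and HLA-E in level, and their ratios had intervals that included 1 (0.344 to 1.21 for HLA-H and 0.904 to 2.16 for HLA-V).

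The light chain was modestly lower. B2M (chromosome 15, 45003675 to 45011075), whose product pairs with class I heavy chains, had 102.9 RPKM from 2096 reads in the ANGPTL4 library and 118.5 RPKM from 4908 reads in the control library. Its ratio was 0.868 (0.824 to 0.914) and its log2 ratio -0.20. That lies close to the median gene, and after upper-quartile scaling the ratio was 0.967 with an interval that included 1 (0.919 to 1.02). Relative to HLA-C, B2M stood at 1.07 in the ANGPTL4 library and 1.30 in the control library, a quotient of 0.818 (0.739 to 0.905). Relative to B2M, HLA-E had a quotient of 0.913 with an interval that included 1 (0.806 to 1.03).

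The peptide-loading genes did not all differ in the same direction: both transporter chains were lower in the ANGPTL4 library and tapasin was higher. TAP2 (chromosome 6, 32781544 to 32806599) had 6.78 RPKM from 154 reads in the ANGPTL4 library and 10.1 RPKM from 466 reads in the control library. Its ratio was 0.672 (0.556 to 0.808) and its log2 ratio -0.51, the lowest of the 9 members, and 12.1% of all measured genes had a lower one. TAP2 has 2 rows, and the second was listed at 0 in both libraries. Its interval stayed below 1 under each of the 4 scalings. The annotated region of HLA-DOB overlaps that of TAP2, and HLA-DOB had 0.166 RPKM in the ANGPTL4 library and 0.164 RPKM in the control library.

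TAP1 (chromosome 6, 32812986 to 32821755), the other chain of the transporter, had 5.28 RPKM from 81 reads in the ANGPTL4 library and 7.06 RPKM from 220 reads in the control library. Its ratio was 0.748 (0.573 to 0.970), but after scaling to the same median gene it was 0.809 with an interval that included 1 (0.619 to 1.05), and under none of the 4 scalings did the interval stay below 1. The TAP1 call therefore rests on the values as deposited. The annotated region of PSMB9, which starts next to TAP1 in the opposite direction, covers that of TAP1, and TAPSAR1 overlaps it too, so without known strand their reads cannot be told apart. The ratio of TAP1 to TAP2 was 0.779 in the ANGPTL4 library and 0.699 in the control library, with a quotient of 1.11 whose interval included 1 (0.803 to 1.54).

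TAPBP (chromosome 6, 33267471 to 33282164) had 51.6 RPKM from 843 reads in the ANGPTL4 library and 45.1 RPKM from 1500 reads in the control library. Its ratio was 1.14 (1.05 to 1.24) and its log2 ratio 0.19, the highest of the 9 members, and 83.5% of all measured genes had a lower one. The interval of TAPBP stayed above 1 under each of the 4 scalings. The difference between the loading genes was clearest within a library: TAP2 stood at 0.131 of TAPBP in the ANGPTL4 library and 0.224 in the control library, a quotient of 0.588 (0.478 to 0.721). For TAP1 over TAPBP the quotient was 0.655 (0.494 to 0.862).

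**Figure D3:**
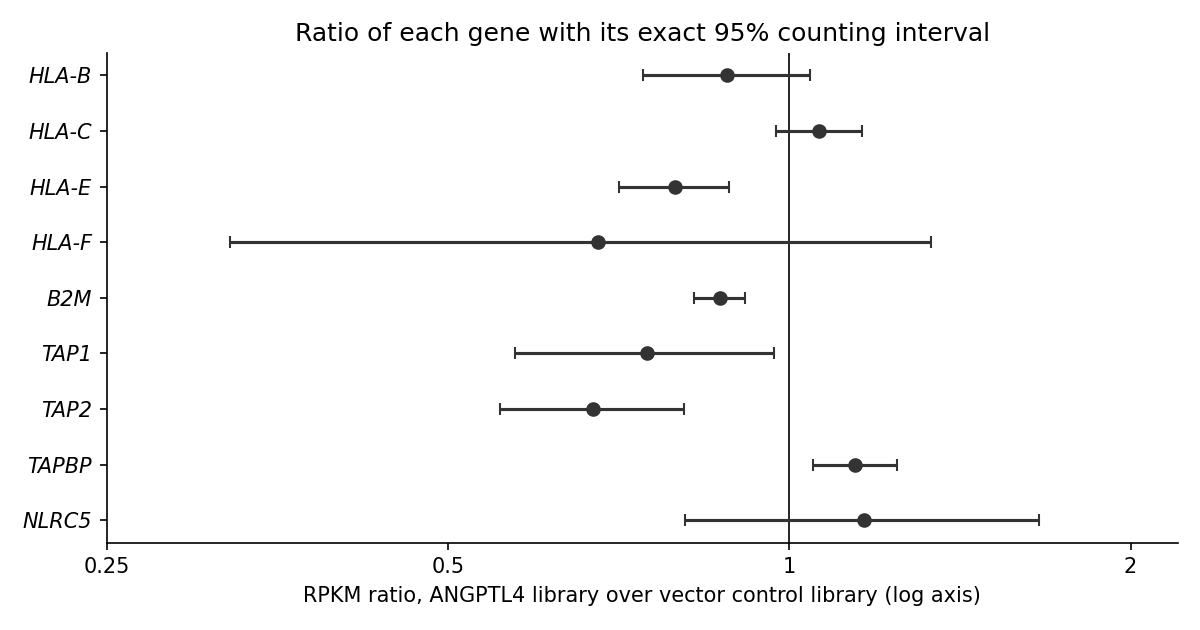
RPKM ratio of each gene, ANGPTL4 library over vector control library, on a log axis, with exact 95% intervals for counting error only. The intervals of HLA-E, B2M, TAP1 and TAP2 lie below 1, that of TAPBP lies above 1, and those of HLA-B, HLA-C, HLA-F and NLRC5 include 1.

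NLRC5 was low in both libraries. NLRC5 (chromosome 16, 57023397 to 57117443) had 1.27 RPKM from 51 reads in the ANGPTL4 library and 1.09 RPKM from 89 reads in the control library. Its ratio was 1.16 (0.809 to 1.66), so a difference was not detectable at this depth. For comparison, the class II transactivator CIITA, which works in the same way at class II genes, had 0.0786 RPKM in the ANGPTL4 library and 0.0645 RPKM in the control library.

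The other genes of the pathway were taken from lists, and no measured gene of these lists reached 2-fold on the log2(RPKM + 1) scale, although the RPKM ratios of IRF9 and FCGRT given below lie beyond it. The counts of lower genes that follow stand beside 64.4% of all measured genes, and the medians of log2 ratios beside -0.11. In the immunoproteasome list 4 of 5 genes were lower in the ANGPTL4 library, with a median log2 ratio of -0.07. PSMB10, a catalytic subunit, had 6.34 RPKM from 38 reads in the ANGPTL4 library and 10.3 RPKM from 125 reads in the control library (ratio 0.618, 0.418 to 0.895). For the other catalytic subunits a difference was not detectable at this depth. PSMB8 had 5.70 RPKM in the ANGPTL4 library and 6.30 RPKM in the control library (ratio 0.906, 0.598 to 1.35). PSMB9 had 1.51 RPKM in the ANGPTL4 library and 1.63 RPKM in the control library (ratio 0.924, 0.252 to 2.88). The activator subunits PSME1, with a ratio of 1.04 (0.898 to 1.204), and PSME2, with 0.966 (0.812 to 1.15), had intervals that included 1. PSMB9 and PSMB8 lie beside TAP1 and TAP2.

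All 4 genes in the list of constitutive proteasome counterparts were lower, beside 64.4% of all measured genes, with a median of -0.14, beside -0.11. PSMB5, the catalytic subunit that PSMB8 replaces, had 35.0 RPKM in the ANGPTL4 library and 53.3 RPKM in the control library (ratio 0.658, 0.558 to 0.773). PSMB6 and PSMB7, which PSMB9 and PSMB10 replace, had ratios of 0.937 (0.676 to 1.29) and 0.900 (0.782 to 1.03). The exon length of PSMB6 was not settled, so its interval may be too wide. PSME3, an activator of the nuclear proteasome, had 39.2 RPKM in the ANGPTL4 library and 43.3 RPKM in the control library.

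Chaperones and peptide-trimming enzymes lay on both sides, 4 of 9 lower and 5 higher, with a median of 0.02. CALR, which holds the heavy chain for loading, had 451.3 RPKM in the ANGPTL4 library and 359.3 RPKM in the control library (ratio 1.26, 1.21 to 1.31). CANX, which binds newly made heavy chains before CALR does, had 142.8 RPKM in the ANGPTL4 library and 186.6 RPKM in the control library (ratio 0.765, 0.733 to 0.799). CALR and TAPBP, which act in the same loading complex, were thus both higher, but the complex did not differ in 1 direction. TAP1, TAP2 and B2M, also parts of it, were lower as deposited, with ratios of 0.748, 0.672 and 0.868. Its heavy chains lay on both sides. PDIA3, another member of that complex, had a ratio of 1.04 with an interval that included 1 (0.950 to 1.14). LNPEP, an endosomal peptidase, had 4.52 RPKM in the ANGPTL4 library and 6.38 RPKM in the control library (ratio 0.708, 0.605 to 0.826). TAPBPL, a tapasin-related protein, had 2.72 RPKM in the ANGPTL4 library and 2.48 RPKM in the control library. ERAP1 and ERAP2, which trim peptides in the endoplasmic reticulum, had ratios of 0.955 (0.635 to 1.41) and 1.01 (0.849 to 1.21). The exon lengths of PDIA3 and ERAP1 were not settled, so their intervals may be too wide.

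**Figure D4:**
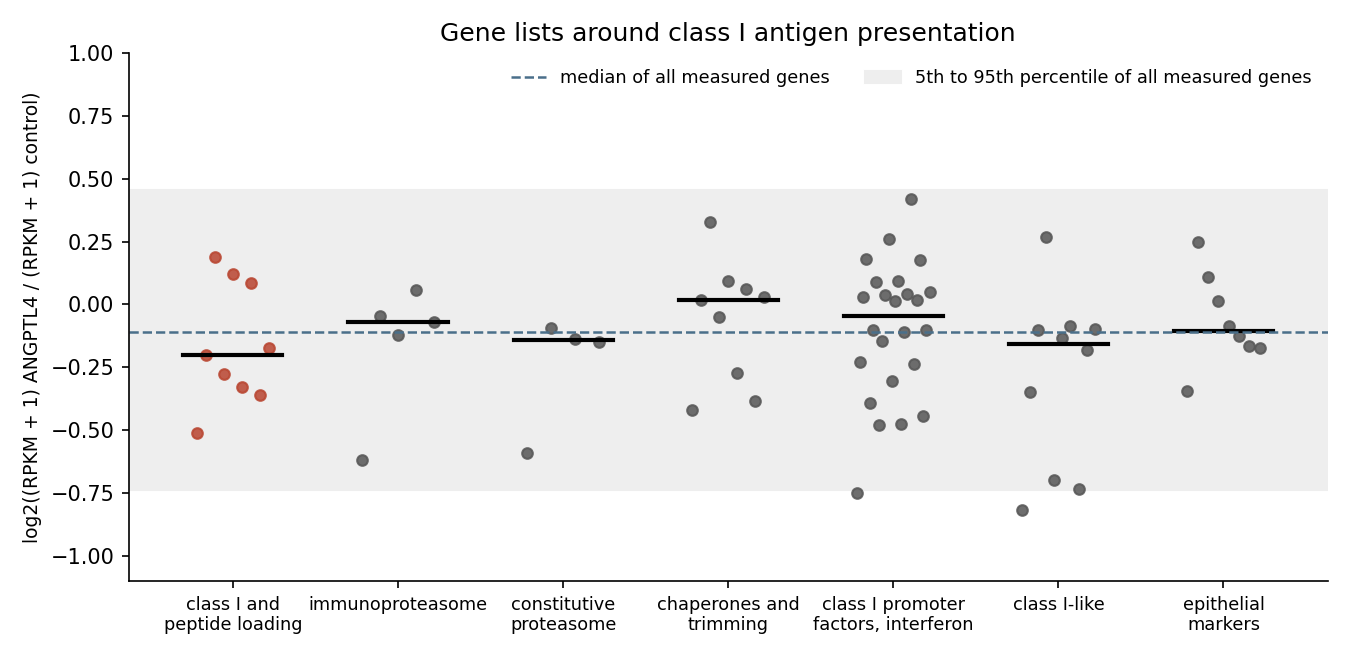
Log2 ratio of RPKM + 1, ANGPTL4 over control, of the measured genes in each list, 1 point a gene, with a bar at the list's median. The dashed line is the median of all measured genes (-0.11) and the grey band runs between their 5th and 95th percentiles (-0.74 and 0.45). Every list lies across or near the dashed line.

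Factors that act at class I promoters and in interferon signalling were split evenly, 12 of 24 measured genes lower and 12 higher, with a median of -0.04. IRF9, which joins STAT2 at ISRE sites, had 0.571 RPKM from 7 reads in the ANGPTL4 library and 1.64 RPKM from 41 reads in the control library (ratio 0.347, 0.131 to 0.781). The kinase JAK1 had 12.3 RPKM in the ANGPTL4 library and 17.6 RPKM in the control library (ratio 0.701, 0.605 to 0.810). STAT2 lay the other way, with 10.5 RPKM in the ANGPTL4 library and 8.59 RPKM in the control library (ratio 1.22, 1.02 to 1.45). ATF1, of the CREB/ATF family, had 12.3 RPKM in the ANGPTL4 library and 8.94 RPKM in the control library (ratio 1.38, 1.07 to 1.76). IRF1, which binds ISRE sites of class I genes, had 3.81 RPKM in the ANGPTL4 library and 3.77 RPKM in the control library. RFX5, the DNA-binding RFX subunit, had a ratio of 0.836 (0.664 to 1.05), and the interferon-gamma receptor chains IFNGR1 and IFNGR2 had ratios of 1.01 (0.833 to 1.23) and 1.07 (0.901 to 1.27).

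In the class I-like list 9 of 10 measured genes were lower, beside 64.4% of all measured genes, and the median was -0.16, beside -0.11. ULBP2, a stress ligand of the natural killer receptor NKG2D, had 7.11 RPKM from 31 reads in the ANGPTL4 library and 13.3 RPKM from 118 reads in the control library (ratio 0.534, 0.347 to 0.799). RAET1G, a related ligand, had 2.497 RPKM from 12 reads in the ANGPTL4 library and 4.81 RPKM from 47 reads in the control library (ratio 0.519, 0.251 to 0.994). ULBP3 had 6.89 RPKM in the ANGPTL4 library and 5.54 RPKM in the control library, and ULBP1 had 1.08 RPKM in the ANGPTL4 library and 1.21 RPKM in the control library. ULBP and RAET1 genes are close copies of each other, which makes single members uncertain. The more abundant NKG2D ligands MICA and MICB had ratios of 0.930 (0.761 to 1.13) and 0.909 (0.777 to 1.06), with intervals that included 1. FCGRT, the heavy chain of the neonatal Fc receptor and a partner of B2M, had 1.48 RPKM from 20 reads in the ANGPTL4 library and 3.03 RPKM from 83 reads in the control library (ratio 0.490, 0.285 to 0.806). MR1, another B2M partner, had 3.24 RPKM in the ANGPTL4 library and 4.401 RPKM in the control library (ratio 0.736, 0.577 to 0.931). The scalings were not applied to the intervals of these genes. Those of RAET1G and MR1, with upper ends of 0.994 and 0.931, therefore hold only for the values as deposited.

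Both libraries came from the same cell line, and markers of other cell types were looked up as a description. In bulk RNA, fewer cells of a type and less RNA per cell cannot be told apart. None of the 12 listed class II genes reached 1 RPKM, and their summed level was 1.42 RPKM in the ANGPTL4 library and 1.60 RPKM in the control library. Of 10 leukocyte markers, 9 were listed at 0 in the ANGPTL4 library and 6 in the control library, and PTPRC, which marks all leukocytes, was listed at 0 in the ANGPTL4 library and had 0.0179 RPKM in the control library. The markers at 0 in the ANGPTL4 library alone were PTPRC, ITGAM and LYZ. They had 1, 2 and 1 reads in the control library, which is the deeper one, so these zeros show no difference. CD14 was the single measured one, with 1.15 RPKM in the ANGPTL4 library and 0.968 RPKM in the control library. Fibroblast markers summed to 0.666 RPKM in the ANGPTL4 library and 0.623 RPKM in the control library, and the 2 endothelial markers found to 0.582 RPKM in the ANGPTL4 library and 0.434 RPKM in the control library. Epithelial markers were all measured, 5 of 8 lower, with a median of -0.11. Among them GATA3, a urothelial transcription factor, had 15.8 RPKM in the ANGPTL4 library and 13.1 RPKM in the control library, and the keratin KRT5 had 468.9 RPKM in the ANGPTL4 library and 434.2 RPKM in the control library. The adhesion gene EPCAM had 53.4 RPKM in the ANGPTL4 library and 68.01 RPKM in the control library (ratio 0.785, 0.701 to 0.878), and the keratin KRT7 had 172.7 RPKM in the ANGPTL4 library and 194.8 RPKM in the control library.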

How the data were processed

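Total RNA of BFTC 905 cells was extracted with TRIzol, per the labels' protocols, and sequenced as 1 library per group. The authors deposited RPKM values, which divide the reads of a gene by its exon length and by the size of the library. The submitters' processing notes name hg19 as the build. Which aligner, counter and annotation were used, how long the reads were, whether strand was used and what became of multiply matching reads is not given in the sources used here. Class I genes are highly polymorphic, so reads of alleles unlike the reference can align less well, and the part of this in the values was not tested.

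Rows of the same symbol were summed over the 57773 rows, giving 55773 symbols. Numbered rows such as TAP2_1 and TAP2_2 were taken as 1 symbol. Reads were recovered from the RPKM values. The library total was the smallest at which all 13 mitochondrial protein genes gave whole reads (tolerance 0.02). Each row's exon length was the length at which both libraries gave whole reads, if just 1 such length lay within 1.5-fold of the GENCODE 29 exon length. This settled 65.3% of 18483 rows above 0, and the smallest such length was used for the others, whose reads are minimum numbers and whose intervals are, if anything, too wide. The tolerance followed the printed digits. Ratio intervals are exact 95% binomial intervals from the reads and both totals, and level intervals are exact Poisson intervals. Quotients of ratios have conditional exact intervals, and shares have Wilson intervals. All of them cover counting error only.

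Log2 ratios are of RPKM + 1, ANGPTL4 over control, and understate the differences of low genes. Genes that reached 1 RPKM in either library were called measured, and the size rule was 2-fold on this scale. A single library per group permits no test, and no p-value was computed. The named genes are the members and, of each further list, the 2 highest and the 2 lowest measured genes by log2 ratio, with all measured genes of the short proteasome lists and others where a role is described. The members and lists were chosen with earlier results of these data known. The scripts were tested on simulated libraries. Promoter windows came from RefSeq (GRCh38.p14), and no other coordinates of that build were used. Software was Python 3.11.15, pandas 2.3.3, numpy 2.4.6, scipy 1.17.1 and matplotlib 3.10.9.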

Additional observations from a re-analysis of the deposited data

How the results depend on the processing

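Of the 9 members, 6 were lower and 3 higher under each of the 8 alternatives tried on log2 ratios, except that with a minimum of 5 RPKM HLA-F and NLRC5 were not counted, and no member reached 2-fold under any of them. The sign of the summed heavy chains depended on scaling: the log2 ratio was 0.0305 after centring on the median gene and 0.0742 after upper-quartile scaling, against -0.08 as deposited. Under the scalings, which were applied to the intervals after seeing the data, TAP1 lost its call under all 4 scalings and B2M under upper-quartile scaling, while HLA-C gained one under all 4. HLA-E, TAP2 and TAPBP kept theirs. Intervals of genes other than the members were not rescaled and hold for the values as deposited. The count of measured genes past 2-fold higher was 284 with a pseudocount of 0.1 RPKM, 15 with 5 RPKM and 34 with a minimum of 5 RPKM, against 141. The count past 2-fold lower was 532, 26 and 126 in the same order, 139 after centring and 147 after upper-quartile scaling, against 226. Fewer genes are tested with the minimum of 5 RPKM, and a pseudocount alters small values by construction. No paired analysis was possible because each group has 1 library and no result comes from a test. Depth limited HLA-F, with 12 and 36 reads, and NLRC5, with 51 and 89 reads in the ANGPTL4 and control libraries. With the smallest possible exon lengths, the B2M reads were 1048 and 2454, the TAP2 reads 77 and 233, and all 5 intervals still excluded 1.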

Other observations

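The class I genes on chromosome 6 lie in the major histocompatibility complex among many genes of other function. Between the outermost of these members (chromosome 6, 29690552 to 33282164, hg19), a stretch chosen after values had been seen, 94 further genes were measured. Of these, 50 were lower in the ANGPTL4 library and 44 higher, so 53.2% were lower, beside 64.4% of all measured genes. Their median log2 ratio was -0.02, beside -0.11 for all measured genes. LY6G6C, a member of the Ly6 family, was the single gene there past the 2-fold rule, with 1.68 RPKM in the ANGPTL4 library and 5.10 RPKM in the control library from 6 and 37 reads.

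Abundant genes of the stretch lay on both sides. The tubulin gene TUBB had 342.2 RPKM in the ANGPTL4 library and 441.3 RPKM in the control library, and the ribosomal protein gene RPS18 had 237.7 RPKM in the ANGPTL4 library and 409.1 RPKM in the control library. IER3, an immediate early gene, had 240.6 RPKM in the ANGPTL4 library and 204.7 RPKM in the control library. HSPA1A and HSPA1B, near-identical heat shock genes that lie side by side, differed in opposite directions. HSPA1A had 182.0 RPKM in the ANGPTL4 library and 129.9 RPKM in the control library (ratio 1.40, 1.31 to 1.4997). HSPA1B had 90.4 RPKM in the ANGPTL4 library and 121.7 RPKM in the control library (ratio 0.743, 0.682 to 0.809), and how reads were divided between this pair is not given in the sources used here.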
